A study of Mus musculus with 26 samples.

Results

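The genes described here are the clustered histone genes of the mouse, which supply histones to replicating chromatin. They were chosen by symbol: every protein-coding gene of the RefSeq annotation of GRCm38, the build also called mm10, named H1f, H2ac, H2bc, H3c or H4c followed by digits. The rule took 67 of 21521 located protein-coding genes: 10 for the linker histone H1, 17 for H2A, 16 for H2B, 12 for H3 and 12 for H4. The symbol rule uses no measured value, although the gene family was picked with earlier results of these data known. The symbol rule also takes 7 genes that are not typical replication-dependent genes. Of these, H1f0 and H1f10 encode replacement linker histones, H1f6 and H1f7 are linker genes of male germ cells, H1f8 is the oocyte linker gene, and H2ac1 and H2bc1 encode testis histones.

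Replication-dependent histone genes are short, lie in clusters and are transcribed mainly in S phase. Their messenger RNAs end in a stem-loop instead of a poly(A) tail, and their transcription and 3′ end processing take place in a nuclear compartment, the histone locus body. Domain boundaries are positions in a chromosome across which contacts between the flanking stretches are depleted, and the stretches between them are called domains.

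The study applied Micro-C, in which crosslinked chromatin is cut with micrococcal nuclease and ligated so that contacts can be counted, to mouse cells in G1. All cells came from a RAD21-dTAG line derived from Bruce-4 cells on a C57BL/6J background, in which the cohesin subunit RAD21 can be degraded. The 26 libraries form 5 groups: embryonic stem cells (ESCs) with 20 µM A485, a p300/CBP inhibitor (6 libraries), with 500 nM dTAG (6) or with 0.05% v/v DMSO (6), and epiblast-like cells with dTAG (4) or DMSO (4). The growth protocol of replicates 4 to 6 of the A485 and dTAG ESC groups describes differentiation to epiblast-like cells, although their labels call them ESCs. The values below come from a list of 3515 boundaries, each an interval of 25 kb, which the authors made from the 6 pooled DMSO-treated ESC libraries. The dTAG, A485 and epiblast-like groups were not analysed here. The list has no score and no replicates, the contact depth is unknown, and positions are resolved only to the 25 kb grid. No test over samples was therefore possible, and the comparisons below are descriptions. Whether the boundaries depend on cohesin or on the cell cycle was not tested.

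Histone genes lay close to domain boundaries. A gene was counted as near when one of its ends lay inside a boundary interval or within 10 kb of it. By this measure 35 of the 67 histone genes were near a boundary, or 52.2% (95% Wilson interval 40.5 to 63.7), against 18.3% of all protein-coding genes. The interval covers counting error only, and the genes share loci, so they are not independent. The midpoints of 19 histone genes (28.4%, Wilson interval 19.0 to 40.1) lay inside a boundary, against 6.52% of protein-coding genes. The median distance from a gene end to the nearest boundary was 8.67 kb for histone genes and 98.9 kb for all protein-coding genes. The distances ran from 0 for H4c6 and 19 other histone genes with an end inside an interval to 218 kb for H1f7. The boundary at 23550001 on chromosome 13 had more histone genes than any other. Without it, 23 of 67 histone genes were near (34.3%, against 18.2%) and 12 had midpoints inside an interval (17.9%, against 6.49%). Their median distance was then 45.4 kb, against 99.3 kb.

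**Figure D1:**
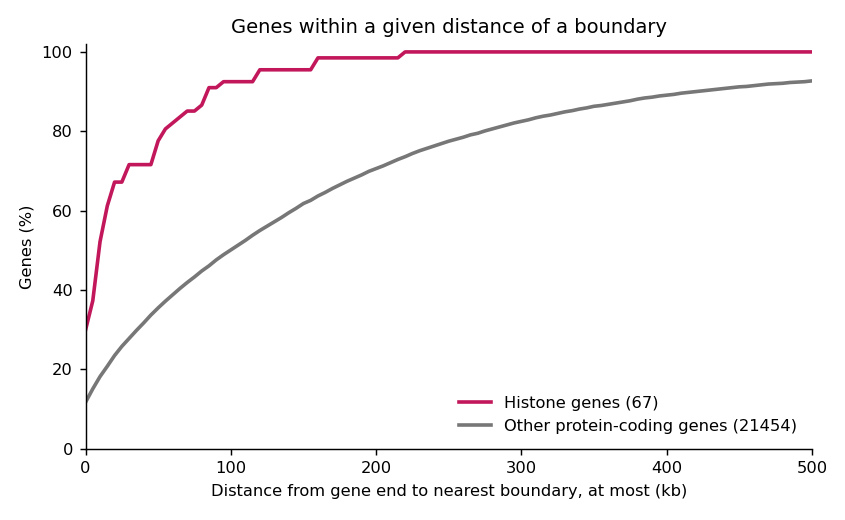
Percentage of genes (vertical axis) whose end lies within a given distance in kb of the nearest boundary (horizontal axis), for 67 histone genes and the 21454 other protein-coding genes. Within 50 kb lie 77.6% of the histone genes and 35.5% of the other genes.

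Gene length and crowding differ between histone genes and the rest, and their part in the difference was not tested. The median annotated length was 0.496 kb for histone genes and 17.4 kb for all protein-coding genes. Among genes of up to 10 kb, 33 of 65 histone genes were near a boundary, or 50.8%, against 12.0% of the 7675 protein-coding genes of that length, histone genes included. Histone genes had a median of 16 other protein-coding genes with a midpoint within 100 kb, against a median of 3 for all protein-coding genes. Among the genes with at least 16 such neighbours, 22 of 40 histone genes were near a boundary, or 55.0%, against 10.8% of all 379 such genes, which include the histone genes themselves, and 5.60% of the 339 others. Short genes and crowded genes, each set counted by itself, had lower shares than protein-coding genes as a whole. Length and crowding were not combined, and what they contribute at the histone genes was not tested.

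All 35 near genes lay at 5 boundaries. Joined wherever they were less than 100 kb apart, the 67 genes formed 9 loci, 4 of them on chromosome 13 with 53 genes in all, 1 on chromosome 3 with 10 genes, and 4 of a lone gene. The lone genes were H1f0 and H1f7 on chromosome 15 and H1f10 and H1f8 on chromosome 6. Of these, H1f8 was nearest to a boundary, at 94.9 kb, followed by H1f10 and H1f0, both at 119 kb, and H1f7 at 218 kb. Genes near a boundary were found in 3 of the 4 chromosome 13 loci and in the chromosome 3 locus. On chromosome 13, 29 of 53 genes were near, and on chromosome 3, 6 of 10.

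The third locus of chromosome 13, from 23531044 to 23764412, was the largest, with 29 genes in 233 kb, and was cut by 2 boundaries. It held 5 H1, 5 H2A, 6 H2B, 7 H3 and 6 H4 genes, and 20 of the 29 were near a boundary. The boundary from 23550001 to 23575000 held the midpoints of 7 histone genes: H4c6, the linker gene H1f3, H3c6, and the H2A and H2B genes H2ac8, H2bc8, H2bc7 and H2ac7. H3c4 began 0.763 kb beyond it and H4c4 6.57 kb beyond it. On the opposite side H3c7 and H2bc9 lay 5.05 and 6.56 kb away. H2bc6, at 8.67 kb, was near only by the far end of an annotated span of 37.5 kb. The second boundary, from 23750001 to 23775000, held H2ac4, H3c2, H4c2, H4c1, H3c1 and the linker gene H1f1. H2bc3 and H3c3 lay 2.78 and 4.48 kb before it, and H1f2 lay just outside the window, at 10.5 kb.

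The first locus of chromosome 13, from 21715711 to 21833475, held 17 genes in 118 kb, with 1 boundary towards its end. This boundary, from 21800001 to 21825000, held the H2B gene H2bc23, the H2A gene H2ac23 and the H4 gene H4c17. H4c18 and H2ac24 followed at 6.79 and 8.02 kb, and 12 of the 17 genes had their midpoints on the side before the boundary. H2bc22 was near only because its annotated span of 14.1 kb reaches into the interval. The farthest of these genes were H2bc13, H2ac13 and H3c10, 83.8, 83.1 and 81.9 kb away. The second locus, from 22035122 to 22043658, held 5 genes and no boundary of its own. All 5 lay before the boundary that starts at 22050001, H2bc11, H2ac11 and H4c9 at 6.34, 7.05 and 8.64 kb, and H2bc12 and H2ac12 at 13.7 and 14.4 kb. No histone gene had its midpoint inside this boundary. The testis genes H2bc1 and H2ac1, which form the fourth locus, were 159 kb from a boundary.

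On chromosome 3, the locus from 96219885 to 96270192 held 4 H2A, 2 H2B, 3 H3 genes and 1 H4 gene in 50.3 kb, and no linker gene. The boundary from 96250001 to 96275000 held H4c14, H3c13 and H2bc18, the last genes of the cluster. H3c14, H2ac18 and H2ac19 preceded it at 2.65, 3.95 and 9.63 kb, and H3c15 lay just outside the window, at 10.9 kb. The remaining genes, H2bc21, H2ac20 and H2ac21, were 26.3 to 29.6 kb away. All 7 genes outside the interval lay on the same side of it.

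**Figure D2:**
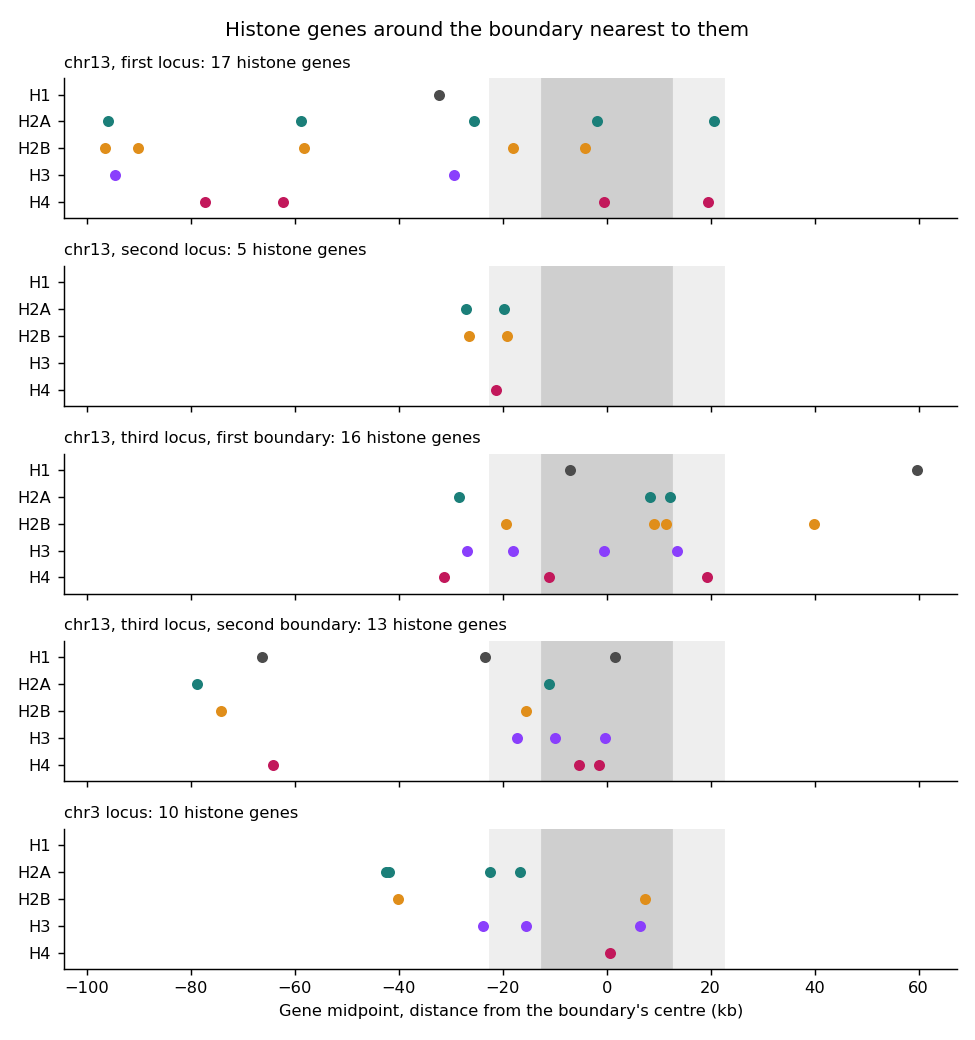
Midpoints of the 61 histone genes of the 4 loci with near genes, as distance in kb from the centre of the nearest boundary (horizontal axis), with a row for each histone type. Each panel is a boundary, dark grey marks its 25 kb interval and light grey the 10 kb on either side. Outside the intervals, the plotted genes stand on both sides of the boundary of the first chromosome 13 locus and of the first boundary of the third. They stand on 1 side only of the other boundaries.

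Few boundaries had as many genes as most of those at histone genes. These boundaries were picked by their histone genes, however, and the histone genes make up nearly all of their counts. Over all 3515 boundaries the median was 1 protein-coding gene with an end inside or within 10 kb, and 1254 boundaries (35.7%) had none. The boundary that starts at 23550001 on chromosome 13 had 12, the highest number of all boundaries, and all 12 were histone genes. The boundary that starts at 23750001 had 9, of which 8 were histone genes and the other was Trim38, a gene for a tripartite motif ubiquitin ligase. The first boundary of the chromosome 13 loci had 7, with H4bc24 the only gene outside the symbol rule. The chromosome 3 boundary also had 7, with Fcgr1, which encodes an Fc receptor, as the only gene that is not a histone gene. Boundaries with 7 or more genes numbered 11 in the whole list (0.313%), and 4 of them were these histone boundaries. The fifth, which starts at 22050001, had 3 genes, all histone genes. By gene midpoints inside the interval, the boundaries with 7 and 6 histone genes ranked 1 and 2 of all boundaries. Both kinds of rank rest on the histone genes by which the boundaries were picked. Apart from genes of the symbol rule, each of these boundaries had at most 1 gene, no more than the median of all boundaries.

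**Figure D3:**
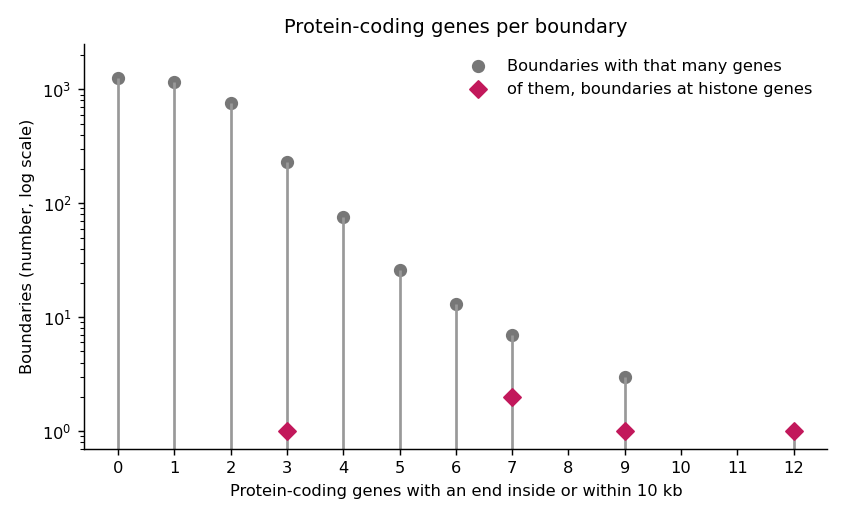
Number of boundaries (vertical axis, log scale) against the number of protein-coding genes with an end inside them or within 10 kb (horizontal axis). Grey circles count all 3515 boundaries and red diamonds the 5 at histone genes, which have 3, 7, 7, 9 and 12 genes. At 12 the diamond covers the circle, since that boundary is the only one with so many genes.

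Core histone genes were near a boundary more often than linker genes, although the numbers per type are small and no test was made. H3 and H4, which together form the central tetramer of the nucleosome, had 8 of 12 genes near a boundary each (66.7%), with median distances of 3.57 and 6.68 kb. H2B had 9 of 16 near (56.2%, median 7.61 kb) and H2A 8 of 17 (47.1%, median 12.8 kb). Of the 10 H1 genes, which bind linker DNA between nucleosomes, H1f1 and H1f3 were near (20.0%, median 50.1 kb). This share was close to the 18.3% of all protein-coding genes. H1f1 and H1f3 both lay wholly inside intervals of the third chromosome 13 locus. The other linker genes of the clusters, H1f2, H1f5, H1f4 and H1f6, lay at 10.5, 19.4, 46.8 and 53.5 kb. The remaining 4 H1 genes are the lone ones, so the contrast with core genes mixes histone type with cluster membership.

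**Figure D4:**
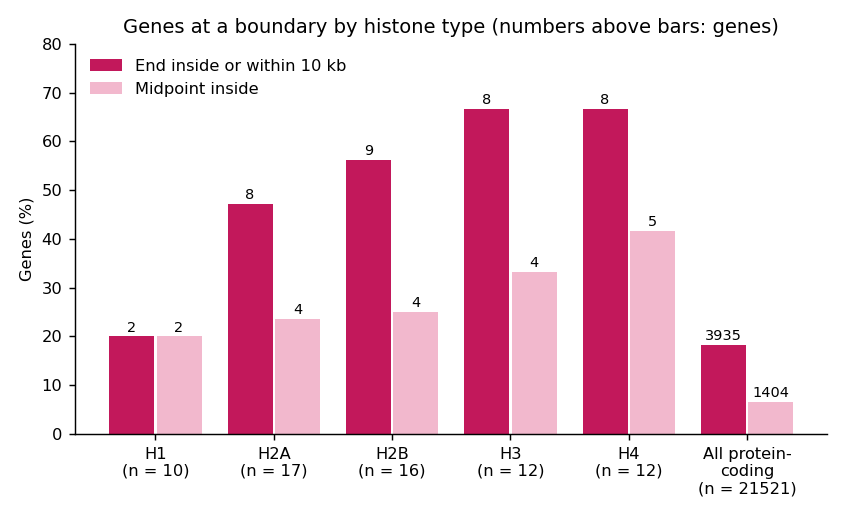
Percentage of genes (vertical axis) with an end inside or within 10 kb of a boundary (dark bars) and with the midpoint inside it (light bars), by histone type, with all protein-coding genes at the right. Numbers above the bars are genes. H3 and H4 reach 66.7% near, H1 20.0% and all protein-coding genes 18.3%.

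H2A and H2B genes often stand head to head and share the DNA between them as promoter. With the strands given by the RefSeq promoter table, which covers 62 of the 67 genes, 9 such H2A-H2B pairs were found, 163 to 280 bases apart (median 179). No interval edge separated the midpoints of a pair, but an edge would rarely fall between genes so close together. Both genes were near a boundary in 4 pairs, neither in 4, and in the remaining pair only H2bc22 was, by its long annotated span. Both midpoints lay inside an interval in 3 pairs, H2ac8-H2bc8, H2bc7-H2ac7 and H2bc23-H2ac23. The DNA between the genes is printed below for these 3 pairs at boundaries and for 2 pairs away from them, 13.7 and 83.1 kb at the nearer gene, to show what the shared promoters have in common. Sequences are from RefSeq (GRCm38.p6), written 5′ to 3′ on the strand of the H2B gene. Capitals mark 3 motifs on either strand: the CCAAT box (CCAAT), the TATA box (TATAAA) and the octamer (ATTTGCAT), which is bound by POU factors and known from H2B promoters.

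H2ac8-H2bc8 (chr13:23571221-23571399, plus strand): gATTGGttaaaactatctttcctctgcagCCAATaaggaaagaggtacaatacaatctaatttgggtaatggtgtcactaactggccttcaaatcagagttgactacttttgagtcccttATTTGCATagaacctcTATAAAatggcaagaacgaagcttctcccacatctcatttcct
H2bc7-H2ac7 (chr13:23574208-23574380, minus strand): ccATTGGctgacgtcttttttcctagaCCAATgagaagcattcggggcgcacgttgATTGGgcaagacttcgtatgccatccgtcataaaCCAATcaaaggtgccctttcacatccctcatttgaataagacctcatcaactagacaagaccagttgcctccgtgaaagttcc
H2bc23-H2ac23 (chr13:21810200-21810366, minus strand): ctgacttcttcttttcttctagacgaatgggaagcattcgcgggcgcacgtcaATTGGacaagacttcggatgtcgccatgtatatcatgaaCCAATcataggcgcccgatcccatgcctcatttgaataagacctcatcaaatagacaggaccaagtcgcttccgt
H2ac12-H2bc12 (chr13:22035644-22035820, plus strand): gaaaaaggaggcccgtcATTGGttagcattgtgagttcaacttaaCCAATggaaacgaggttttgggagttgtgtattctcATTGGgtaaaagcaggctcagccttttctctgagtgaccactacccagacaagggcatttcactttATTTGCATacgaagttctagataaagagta
H2bc13-H2ac13 (chr13:21716184-21716411, minus strand): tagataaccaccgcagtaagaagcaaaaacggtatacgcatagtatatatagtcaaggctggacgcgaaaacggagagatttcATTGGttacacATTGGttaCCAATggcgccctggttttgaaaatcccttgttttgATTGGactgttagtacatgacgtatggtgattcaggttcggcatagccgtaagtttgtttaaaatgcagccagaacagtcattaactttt

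All 5 stretches hold 2 to 4 CCAAT boxes. The octamer is present in H2ac8-H2bc8, inside a boundary, and in H2ac12-H2bc12, outside, and the exact TATAAA letters are present only in H2ac8-H2bc8. Over the 250 bases before the start site, all 17 H2A and all 15 H2B promoters held a CCAAT box, against 35.6% of 21045 promoters of protein-coding genes. The octamer was found in 6 H2A and 7 H2B promoters and in none of the H1, H3 or H4 promoters, against 1.59% of all. Paired genes share these letters, so their promoters are not independent. The CCAAT and TATA boxes and the octamer had similar shares at boundaries and away from them. Promoters of near histone genes held a CCAAT box in 27 of 33 cases (81.8%) and TATAAA in 15 (45.5%), and those of the other histone genes in 23 (76.7%) and 13 (43.3%) of 30. TATAAA was present in 11.7% of all protein-coding promoters. The octamer was present in 6 of the 33 near and 7 of the 30 other promoters, and the median GC content was 45.2% in both, against 55.6% in all protein-coding promoters. A match is a description of letters and not a bound site.

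Some linker gene promoters share letters. The 150 bases before the start site are printed for H1f3, inside a boundary, for H1f4, 46.8 kb from that boundary, and for the lone gene H1f0. Capitals mark the CCAAT and TATA boxes and the H1 box (AAACACA), an element known from H1 promoters. The H1 box was present before 5 of the 10 H1 genes, 2 H2A and 2 H2B genes, and in 5.50% of all protein-coding promoters. It stood in 2 of the 33 promoters of near histone genes (6.06%) and in 7 of the 30 others (23.3%), and 8 of the 10 H1 genes are among the genes not near a boundary. H1f1, the other linker gene inside a boundary, has a CCAAT box and a TATA box in its window but no H1 box.

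H1f3 (chr13:23554882-23555031, plus strand): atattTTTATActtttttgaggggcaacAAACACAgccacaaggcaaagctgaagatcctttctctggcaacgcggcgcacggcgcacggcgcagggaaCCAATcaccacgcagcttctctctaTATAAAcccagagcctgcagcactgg
H1f4 (chr13:23622559-23622708, minus strand): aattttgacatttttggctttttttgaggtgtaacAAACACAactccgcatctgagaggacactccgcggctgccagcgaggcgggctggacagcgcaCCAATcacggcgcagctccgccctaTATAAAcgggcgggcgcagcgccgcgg
H1f0 (chr15:79028062-79028211, plus strand): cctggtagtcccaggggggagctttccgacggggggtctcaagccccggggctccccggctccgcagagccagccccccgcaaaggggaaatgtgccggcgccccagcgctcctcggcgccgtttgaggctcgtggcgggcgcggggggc

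H1f3 and H1f4 both carry the H1 box, then a CCAAT box and a TATA box near the start site, in the same order, and H1f3 has a further TATA match on the other strand at the start of its window. None of these letters occurs in the window of H1f0.

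Some histone genes have near-identical upstream DNA, and a boundary edge can fall between them. H4c17, inside the interval that starts at 21800001, and H4c18, 6.79 kb beyond it, have opposite strands and share 249 of the 250 bases before their start sites as an unbroken run. The last 150 of these bases are printed for both, with TATAAA in capitals.

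H4c17 (chr13:21811596-21811745, plus strand): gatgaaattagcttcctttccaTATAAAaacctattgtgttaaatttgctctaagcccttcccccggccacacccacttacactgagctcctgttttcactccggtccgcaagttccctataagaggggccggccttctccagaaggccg
H4c18 (chr13:21832198-21832347, minus strand): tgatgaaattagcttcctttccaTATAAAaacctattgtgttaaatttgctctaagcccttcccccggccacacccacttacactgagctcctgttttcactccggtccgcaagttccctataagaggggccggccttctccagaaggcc

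H2bc23 and H2ac24, inside and outside the same interval, shared a run of 233 bases. On chromosome 3, H3c14 and H3c15 shared 231 bases and H2ac18 and H2ac19 shared 169, all 4 genes on the same side of the boundary. How well reads could be placed in such copies was not tested.

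Domains that hold histone genes varied in length and were rich in genes when the histone genes were counted. Outside the intervals themselves, 48 histone genes had their midpoints in 10 domains, of 125 to 800 kb (median 350 kb), against a median of 500 kb for all 3495 domains. Of the 10 domains, 3 were shorter than 250 kb, against 443 of all 3495 (12.7%), and 4 were longer than the median of all. These 3 short domains held 23 of the 48 histone genes (47.9%), and domains of that length held 5.43% of the 19750 protein-coding genes with a midpoint in a domain. The 10 domains held a median of 4.20 protein-coding genes per 100 kb, to which the histone genes themselves contribute, and all domains a median of 0.667.

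Within the third chromosome 13 locus, the 175 kb domain from 23575001 to 23750000 held 12 protein-coding genes. Of these, 11 were histone genes and the other was Hfe, which encodes the regulator of iron uptake mutated in haemochromatosis. Its 6.86 genes per 100 kb ranked 7 of 3495 domains, a rank that rests on the histone genes by which it was picked. No density without them was computed. H2A, H2B, H3 and H4 genes were all among the 11, with the linker genes H1f2, H1f4 and H1f6. The domain before it, from 23425001 to 23550000, measured 125 kb, the shortest length in the list, and held H4c8, H2ac10, H3c8, H2bc9 and H3c7 beside the butyrophilin genes Btn1a1 and Btn2a2. The domain that follows the locus, 525 kb long, held the testis genes H2bc1 and H2ac1, 4 phosphate transporter genes of the Slc17a family, Trim38, Scgn and Carmil1.

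The first locus of chromosome 13 was divided between a 650 kb and a 225 kb domain. The 650 kb domain held 12 histone genes beside 9 olfactory receptor genes and 5 genes named Zkscan or Zscan, which encode zinc finger proteins. The 225 kb domain held H4c18 and H2ac24 at its start and the 5 genes of the second locus at its end. Between these groups lay H4bc24, Zfp184, Pom121l2 and Prss16. The second and the third locus were separated by 1487 kb, most of it a 1175 kb domain without any histone gene, in which 36 of 37 protein-coding genes belonged to the vomeronasal receptor family Vmn1r. On chromosome 3, 7 histone genes ended a 400 kb domain that also held Sf3b4, Sv2a, Anp32e and 10 other genes.

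**Figure D5:**
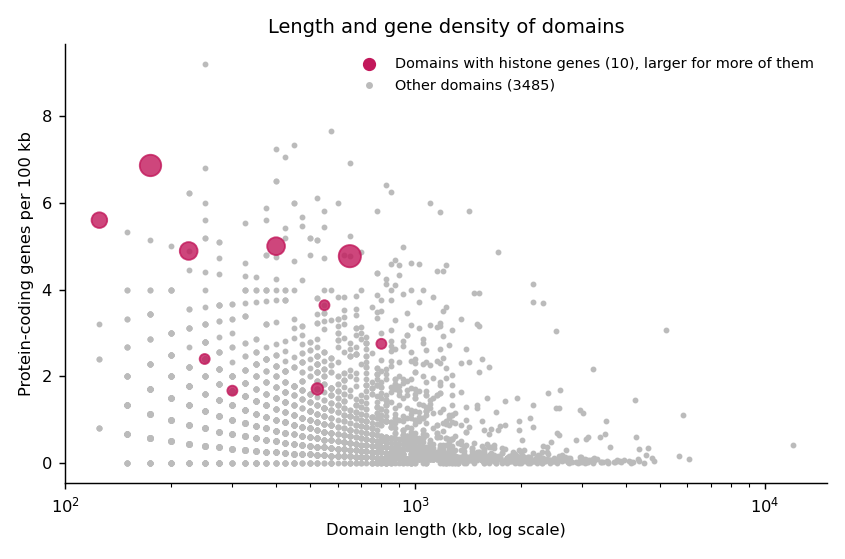
Length in kb (horizontal axis, log scale) and protein-coding genes per 100 kb (vertical axis) of all 3495 domains. Red circles are the 10 domains that hold histone genes, drawn larger the more they hold, and grey points the others. The domain with 11 histone genes lies at 175 kb and 6.86 genes per 100 kb, with those 11 counted.

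Boundaries were denser over the span of the chromosome 13 clusters than over the chromosome, but not evenly so. The 2.22 Mb from the first to the last histone gene there met 6 boundaries, 2.70 per Mb. Over the annotated span of chromosome 13 the figure was 1.43 per Mb. The ends of the 2.22 Mb were set by the histone genes, and the 1175 kb Vmn1r domain lies within it. The 2 boundaries among them without near histone genes enclose a further 125 kb domain, from 23275001 to 23400000, whose only protein-coding gene was Zfp322a.

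Transfer RNA genes share the domains of these clusters. The domains of 225, 125 and 650 kb that hold histone genes on chromosome 13 held 31, 30 and 27 tRNA genes. By these counts they ranked 2 to 4 of all domains. Near any of the 5 histone boundaries lay 1 tRNA gene, a count for which no background was computed. In the 2.22 Mb span, 14 of 77 tRNA genes (18.2%) were near a boundary of any kind. The share was 23.0% for those elsewhere (75 of 326), 22.1% for all tRNA genes and 18.3% for all protein-coding genes.

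Genes of the histone supply pathway outside the clusters also had shares above that of all protein-coding genes. The lists are small, were chosen with earlier results of these data known, and were not tested. Among 14 genes for transcription and 3′ end processing of histone messenger RNA, 6 were near (42.9%, median distance 55.5 kb), against 18.3% and 98.9 kb for all protein-coding genes. Slbp, which encodes the stem-loop binding protein, Cpsf2 and Cpsf3, for subunits of the cleavage complex, and Eri1, for a 3′ exonuclease, had midpoints inside an interval. Cstf2, for a cleavage stimulation factor subunit, ended inside one, and Lsm11, for a protein of the U7 particle, lay 3.27 kb away. The transcription coactivator gene Npat and Casp8ap2, whose products mark the histone locus body, lay 74.4 and 40.5 kb away. Hinfp, which encodes an activator of H4 genes, lay 94.3 kb away. Sympk, Lsm10 and Coil lay 70.4, 76.4 and 83.4 kb away, and Zfp473 and Gon4l were the farthest of the list, at 481 and 510 kb.

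A list of histone genes outside the clusters, most of them replication-independent variants, had 4 of 11 genes near (36.4%, median 11.7 kb). It also holds H3f4 and H4f16, which are not replication-independent variants of this kind, and without them, a choice made after seeing the data, 3 of 9 were near (33.3%). Cenpa, which encodes the centromeric H3 variant, had its midpoint inside an interval, as did H2aj and H4f16, and H3f3b ended inside one. H2aj and H4f16 are neighbours inside the same interval, so they are not separate cases. H3f3a, the other H3.3 gene, lay 11.4 kb away and H2az1 89.5 kb away. The farthest of this list were H2az2 and Macroh2a1, at 180 and 314 kb. Of 10 histone chaperone genes, 5 were near (50.0%, median 9.21 kb). Asf1a, Hira and Atrx had an end inside an interval, and Nap1l1 and Asf1b lay 1.85 and 4.81 kb away. The chaperone genes Nasp and Daxx lay 21.3 and 34.4 kb away, and Chaf1a and Chaf1b, for subunits of the replication-coupled assembly factor, 90.4 and 259 kb away.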

How the data were processed

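The submitters' processing notes name BWA 0.7.17, Juicer 1.22.01 and the build mm10. The file used, as deposited by the authors, holds the chromosome, start and end of 3515 boundary intervals from pooled DMSO-treated ESC libraries. How boundaries were called, and the depth of each library, is not given in the sources used here.

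Genes, and 250 bases before each start site with its strand, came from RefSeq tables of GRCm38.p6. Genes of unplaced or patch scaffolds, 345 in all, were left out, which kept 49209 genes. Positions are counted from 1. Distances were taken from gene ends to the edge of the nearest interval. Genes were assigned to domains by their midpoints.

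The members and lists were chosen with earlier results of these data known. All members could be named, and other genes only inside or next to histone loci or on the supply lists. The H1 box was added to the motifs after seeing the data. H3f5 of these lists was not matched. The distance computation was tested on simulated data, in which 500 of 500 planted genes were recovered. The computations used pandas 2.3.3 and numpy 2.4.6 under Python 3.11.15, with scipy 1.17.1 for intervals and matplotlib 3.10.9 for figures.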

Additional observations from a re-analysis of the deposited data

How the results depend on the processing

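The share of histone genes near a boundary moved with the window and with the boundary that has more of them than any other. It stayed above that of all protein-coding genes in each of the 12 alternatives that counted genes, but not all of these could have lowered it. None of the lone genes or 7 solitary, testis or oocyte variants was near, so leaving either set out could only raise the share. The 7 histone genes outside the rule, added in another alternative, were chosen after their values were seen. The share was 29.9% with no window, against 11.7% of all protein-coding genes, 67.2% with 25 kb (25.9%) and 77.6% with 50 kb (35.6%). Without the boundary at 23550001 on chromosome 13, an alternative chosen after seeing the data, the share was 34.3% (18.2%), the share with midpoint inside an interval 17.9% (6.49%), and the median distance 45.4 kb (99.3 kb). Without chromosome 13, 6 of 14 genes were near (42.9% against 18.1%) and the median distance was 18.6 kb (99.9 kb). In alternatives likewise added later, by annotated start sites 30 of 62 genes were near (48.4% against 12.4%), without the 7 solitary, testis or oocyte variants 35 of 60 (58.3%). By gene midpoints, 34 of 67 were near (50.7% against 11.2%). Counted by locus, 4 of 9 had a near gene, 5 of 10 when merged under 50 kb and 3 of 7 under 500 kb. No background was computed for loci, and these counts cannot be set beside the shares of single genes. A stricter boundary threshold could not be tried because the list has no score. No paired analysis was possible because the list pools its libraries.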

Other observations

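Histone genes whose symbols fall outside the rule were also found at boundaries. They were chosen after their values were seen, and no test was made. Of 7 such genes, 5 were near a boundary, with a median distance of 4.68 kb. H3f4, H4f16, H2aj and H2ax, 4 of the 7, were already counted above on the list of histone genes outside the clusters, so the counts overlap. On chromosome 11, the H2B gene H2bu2 had its midpoint inside an interval, with the H2A gene H2aw at 4.68 kb and the H3 gene H3f4 at 11.7 kb. On chromosome 6, the H4 gene H4f16 and its neighbour H2aj both had their midpoints inside an interval. H4bc24, next to H2ac24 on chromosome 13, lay 8.74 kb from the boundary of the first cluster. H2ax, the variant phosphorylated at DNA breaks, lay 63.9 kb from a boundary. With these 7 genes included, 40 of 74 histone genes were near (54.1%), against 18.3% of all protein-coding genes.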
